A study of Mus musculus with 12 samples.

Results

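Hox genes were taken as all genes whose symbol is Hox followed by a cluster letter from a to d and a number, and their transcripts were summed per gene. The rule found 39 Hox genes among 35241 gene symbols, and 25 of these 39 reached the mean level of 0.5 that was required for testing. Values are given as normalized TPM, the authors' transcript abundance estimate (TPM) scaled between mice, which sets levels of different genes per transcript length. A total of 15880 genes reached that mean, and sums and counts below cover all 39 Hox genes.

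RNA was sequenced from full-thickness distal colon of 12 mice, 6 Vil1::Cre;Spry2-f/f mice (Spry2IEKO) and 6 Spry2-f/f littermates without Cre (Spry2FF). All 12 mice carried floxed alleles of Spry2, a feedback regulator of growth factor receptor signaling, and Vil1::Cre deletes the gene in intestinal epithelial cells alone, so the muscle, stroma and nerves of a Spry2IEKO colon keep it. The labels give the age as 6 weeks in the growth protocol and as 8 weeks in the extraction protocol. Each genotype had 3 mice from litter A and 3 from litter B, with 5 females and 1 male among the Spry2IEKO mice and 3 females and 3 males among the Spry2FF mice. Mice are named by the number in their label, for example Spry2IEKO replicate 8, and the labels give no position of the piece along the distal colon.

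Hox genes encode homeodomain transcription factors that give cells their place along the body axis. They lie in 4 clusters, and genes of the same number in different clusters are paralogs. Low numbers are switched on early and toward the head, high numbers late and toward the tail, and group 13 genes mark the last part of the gut, where Hoxa13 and Hoxd13 shape the hindgut and anal region in the embryo. Adult epithelium and the muscle and connective tissue around it keep parts of this code, and in bulk tissue fewer cells of a type and less RNA per cell cannot be told apart.

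Levels of Spry2 were 20.04 ± 1.59 (SD, n = 6) in Spry2IEKO and 27.7 ± 3.29 (SD, n = 6) in Spry2FF colon. The highest Spry2IEKO mouse, at 22.5, lay below the lowest Spry2FF mouse, at 22.8, although the log2 fold change of -0.45 (SE 0.0877) did not pass across all genes (limma, adjusted p = 0.160). Normalized TPM summed to between 918816 and 1069158 per mouse, and these values carry no read depth. The labelled tissue carried colon epithelium and smooth muscle: Epcam ranged from 924 to 1162 and Myh11, the smooth muscle myosin, from 244 to 772. Of 7 small intestine markers, 6 had means below 0.5, with Lct, the lactase of the small intestine, at no more than 0.515. The other, Fabp6, a bile acid binding protein of the ileum, had a mean of 15.5, from 11.5 to 21.9. Fat genes stood out in Spry2IEKO replicates 4 and 5, where Adipoq reached 57.8 and 70.8 against at most 6.44 in the other 10 mice, so calls between litters are also given without them.

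The group 13 genes of clusters A and D are shown first, because they are the group 13 genes with a promoter entry. Beside them are Hoxd12, the next gene inward from Hoxd13, and Hoxd1, which closes the other end of cluster D and was close to 0. Each line gives the 250 bases before the gene start in RefSeq (GRCm38.p6), 5′ to 3′ on the strand of the gene, with each TTTAT, a core of the sites that group 13 factors prefer, and its reverse complement ATAAA in capitals. The stretch before Hoxd13 lies at chr2:74667975-74668224 on the plus strand, that before Hoxa13 at chr6:52260881-52261130 on the minus strand, that before Hoxd12 at chr2:74674763-74675012 and that before Hoxd1 at chr2:74762730-74762979, both on the plus strand.
Hoxd13: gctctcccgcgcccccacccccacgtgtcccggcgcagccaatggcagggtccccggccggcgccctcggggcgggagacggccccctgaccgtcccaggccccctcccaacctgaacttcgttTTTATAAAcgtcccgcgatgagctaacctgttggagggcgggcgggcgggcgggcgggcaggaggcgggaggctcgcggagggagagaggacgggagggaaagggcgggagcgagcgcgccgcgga
Hoxa13: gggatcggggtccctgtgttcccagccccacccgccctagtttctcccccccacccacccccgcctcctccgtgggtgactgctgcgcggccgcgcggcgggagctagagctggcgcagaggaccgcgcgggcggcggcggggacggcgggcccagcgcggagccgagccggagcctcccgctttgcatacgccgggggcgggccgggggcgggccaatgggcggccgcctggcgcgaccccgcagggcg
Hoxd12: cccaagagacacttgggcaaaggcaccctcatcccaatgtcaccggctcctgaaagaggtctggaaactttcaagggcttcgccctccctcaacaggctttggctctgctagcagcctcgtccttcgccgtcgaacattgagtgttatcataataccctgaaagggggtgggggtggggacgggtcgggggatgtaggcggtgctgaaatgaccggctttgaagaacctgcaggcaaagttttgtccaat
Hoxd1: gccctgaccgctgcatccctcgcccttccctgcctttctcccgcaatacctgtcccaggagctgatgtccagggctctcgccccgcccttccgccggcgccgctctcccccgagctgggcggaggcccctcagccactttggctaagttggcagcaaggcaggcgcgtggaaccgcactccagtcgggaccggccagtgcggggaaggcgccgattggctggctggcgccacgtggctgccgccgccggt

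The stretch before Hoxd13 held TTTAT and ATAAA as 1 overlapping run, which also contains TATAAA, whereas the other 3 stretches held neither motif. Of 24 Hox promoter entries for 22 Hox genes, 9 held TTTAT on either strand, a share of 37.5%, against 37.3% of all 32851 promoters. The motif TATAAA, which overlaps ATAAA, was in 4 of the 24 entries (16.7%) and in 12.4% of all promoters, and CCAAT was in 14 of 24 (58.3%) and in 33.8%, each searched on both strands. CG pairs numbered 31 before Hoxd13, 35 before Hoxa13, 10 before Hoxd12 and 24 before Hoxd1. The median over the Hox entries was 12.5 CG pairs, and over all promoters 6. Levels did not follow this count among the 4 genes shown, since Hoxd1 was nearly silent with 24 pairs and Hoxd12 was expressed with 10. Hoxb13, the most abundant Hox gene, had no entry in this promoter table.

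Genes of clusters A, B and D made up nearly all of the Hox level, and cluster C was close to silent. The summed level of all Hox genes was 693 ± 51.6 (SD, n = 12), from 611 to 779. Cluster B held 36.9% of this sum, cluster D 31.8% and cluster A 31.2%, and cluster C held 0.0771%. In cluster A 10 of 11 genes reached a mean of 0.5, in cluster B 8 of 10 and in cluster D 7 of 9, while in cluster C 0 of 9 did. A mean of 10 or more was reached by 11 Hox genes, 6 in cluster A, 2 in cluster B and 3 in cluster D. Paralog group 13 alone held 60.0% of the sum, groups 10, 9 and 11 held 11.1%, 9.79% and 6.70%, and group 7 held 4.71%.

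**Figure D1:**
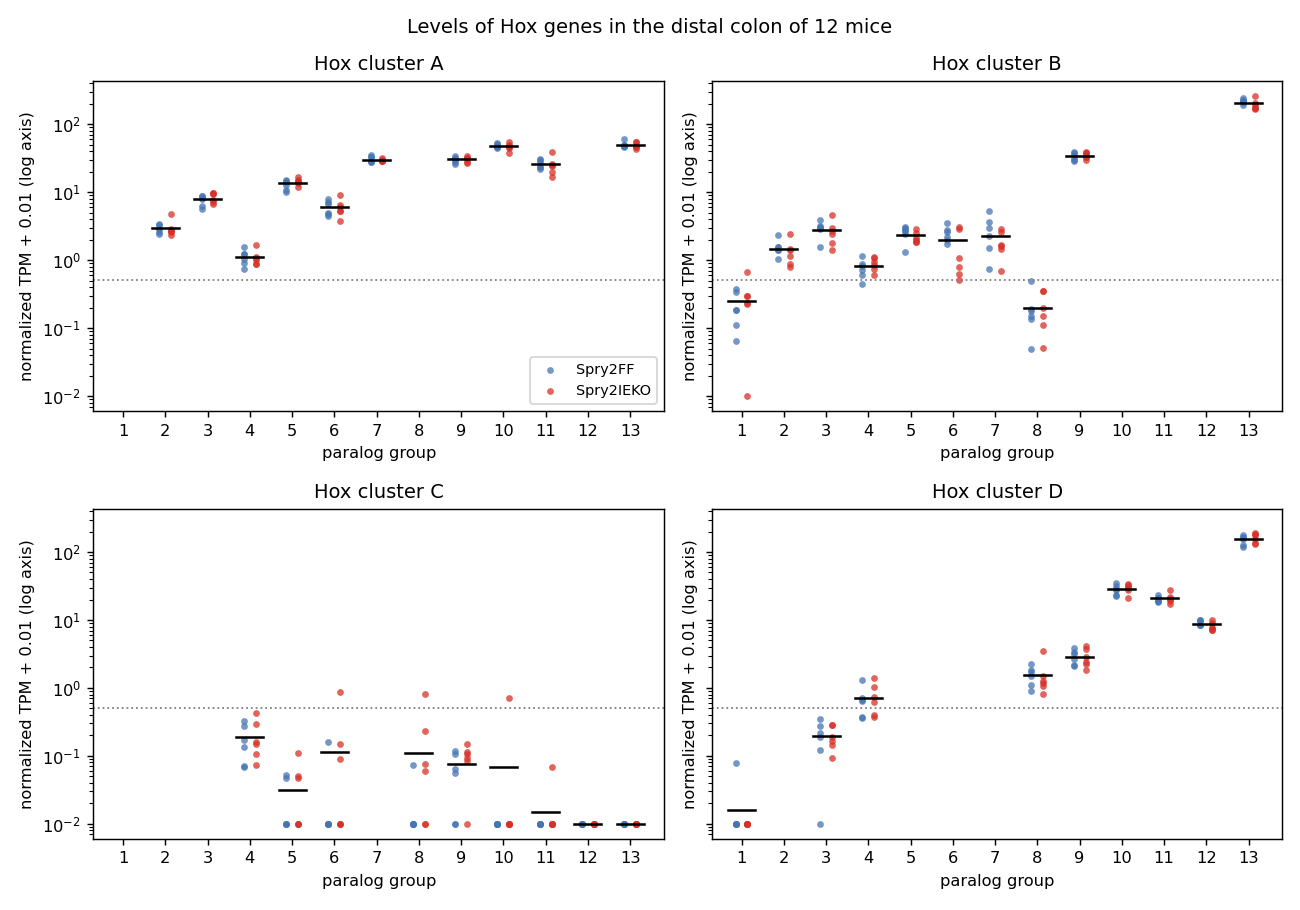
Level of 38 of the 39 Hox genes by cluster (panels) and paralog group (x axis), as normalized TPM + 0.01 on a log axis; points are mice (blue Spry2FF, red Spry2IEKO), black bars are means over 12 mice and the dotted line is the mean of 0.5 required for testing. The highest means of clusters B and D are those of group 13, Hoxb13 at 209 and Hoxd13 at 157, and all 9 Hoxc genes have means below the line.

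Group 13 was led by Hoxb13 and Hoxd13, with Hoxa13 at a lower level and Hoxc13 listed at 0 in all 12 mice. Hoxb13 (chr11:96194316-96197447), known from the prostate and the distal colon and rectum, had the highest mean of all Hox genes, 209 ± 28.9 (SD, n = 12), from 171 to 261. Hoxd13 (chr2:74668310-74671599), best known for limb digits and the anal sphincter, followed at 157 ± 24.0 (SD, n = 12), from 118 to 190. Hoxa13 (chr6:52257694-52260880), needed for hindgut and genital development, reached 49.9 ± 4.84 (SD, n = 12), from 43.8 to 60.6. The ranges of Hoxb13 and Hoxd13 overlapped, but within a mouse Hoxb13 was above Hoxd13 in 10 of 12 mice, Spry2IEKO replicates 11 and 12 being the exceptions. Among the 15880 genes tested, Hoxb13 ranked 616 by mean level and Hoxd13 ranked 845. Hoxb13 and Hoxd13 are each annotated with 1 transcript, so their levels do not depend on how reads were shared between isoforms of the gene.

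Groups 9 to 12 formed a second tier. Hoxa10, known for the uterus and the lumbar spine, had a mean of 47.8 ± 4.22 (SD, n = 12), from 38.0 to 54.1, a range that overlapped that of Hoxa13. Hoxb9 was at 34.5 ± 3.85, Hoxa9, a gene also known from leukemia, at 30.4 ± 2.83, and Hoxd9 was at 2.87 ± 0.774. The ranges of Hoxb9 and Hoxa9 overlapped, and Hoxd9 lay below both in every mouse. Hoxd10 was at 28.7 ± 4.37, Hoxa11, with roles in limb and kidney, at 25.7 ± 5.75, Hoxd11 at 20.7 ± 2.72 and Hoxd12 at 8.65 ± 1.15 (all SD, n = 12). In cluster D the level therefore did not step down evenly from Hoxd13. Summed over all transcripts, Hoxd12, the direct neighbor of Hoxd13, was below Hoxd11 and Hoxd10 in every mouse. With transcripts typed as protein-coding alone, the order of Hoxd12 and Hoxd11 was reversed. Coding Hoxd11 had a mean of 2.63 and reached at most 3.76, below Hoxd12 in every mouse. Hoxd12 stayed below Hoxd10, since both genes have coding transcripts only.

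Groups 2 to 8 were carried mainly by cluster A. Hoxa7 was at 30.3 ± 2.23 and Hoxa5, known for lung and gut mesenchyme, at 13.7 ± 1.95 (SD, n = 12). Hoxa3 followed at 7.99 ± 1.34, Hoxa6 at 6.05 ± 1.57, Hoxa2 at 2.96 ± 0.663 and Hoxa4 at 1.10 ± 0.276. Cluster B members of the same groups had lower means than their cluster A paralogs, though genes were not tested against each other. Hoxb3 was at 2.78, Hoxb5 at 2.38, Hoxb7 at 2.28, Hoxb6 at 1.98, Hoxb2 at 1.44 and Hoxb4 at 0.823. Cluster D added Hoxd8 at 1.54 and Hoxd4 at 0.707. In group 7, Hoxa7 ranged from 28.2 to 35.0 and Hoxb7 from 0.680 to 5.35.

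The Hox genes below a mean of 0.5 included Hoxb1, Hoxb8, Hoxd1, Hoxd3 and all 9 Hoxc genes. Hoxb1, an early hindbrain gene, had a mean of 0.239, Hoxb8 of 0.191 and Hoxd3 of 0.183. Hoxd1 was above 0 in 1 mouse, at 0.0693. In cluster C, Hoxc12 and Hoxc13 were listed at 0 in 12 of 12 mice, Hoxc10 and Hoxc11 were above 0 in 1 mouse each, and Hoxc4, the most widespread, was above 0 in all 12 with a mean of 0.177.

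Hoxc5, Hoxc6, Hoxc8 and Hoxc10 were highest in Spry2IEKO replicate 5, Hoxc4 and Hoxc11 in replicate 6 and Hoxc9 in replicate 11. The 9 Hoxc genes summed to 2.74 in Spry2IEKO replicate 5 and to between 0.0979 and 0.594 in the other 11 mice. In that mouse Hoxc6 was at 0.871, Hoxc8 at 0.811 and Hoxc10 at 0.707, and Hoxd8 at 3.49 was the highest of all mice. It was also the mouse with the highest Adipoq, the adipocyte hormone, at 70.8. Spry2IEKO replicate 4, with Adipoq at 57.8, had Hoxc6 at 0.142, Hoxc8 at 0.0497 and Hoxc10 at 0. Of the fat list of 5 genes, 4 were tested and its summed level was 20.1 to 761 in Spry2IEKO and 20.8 to 72.9 in Spry2FF mice. The Hoxc sum of Spry2IEKO replicate 4, 0.594, was the second highest of the 12 mice, and the part of fat RNA in these sums was not tested.

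**Figure D2:**
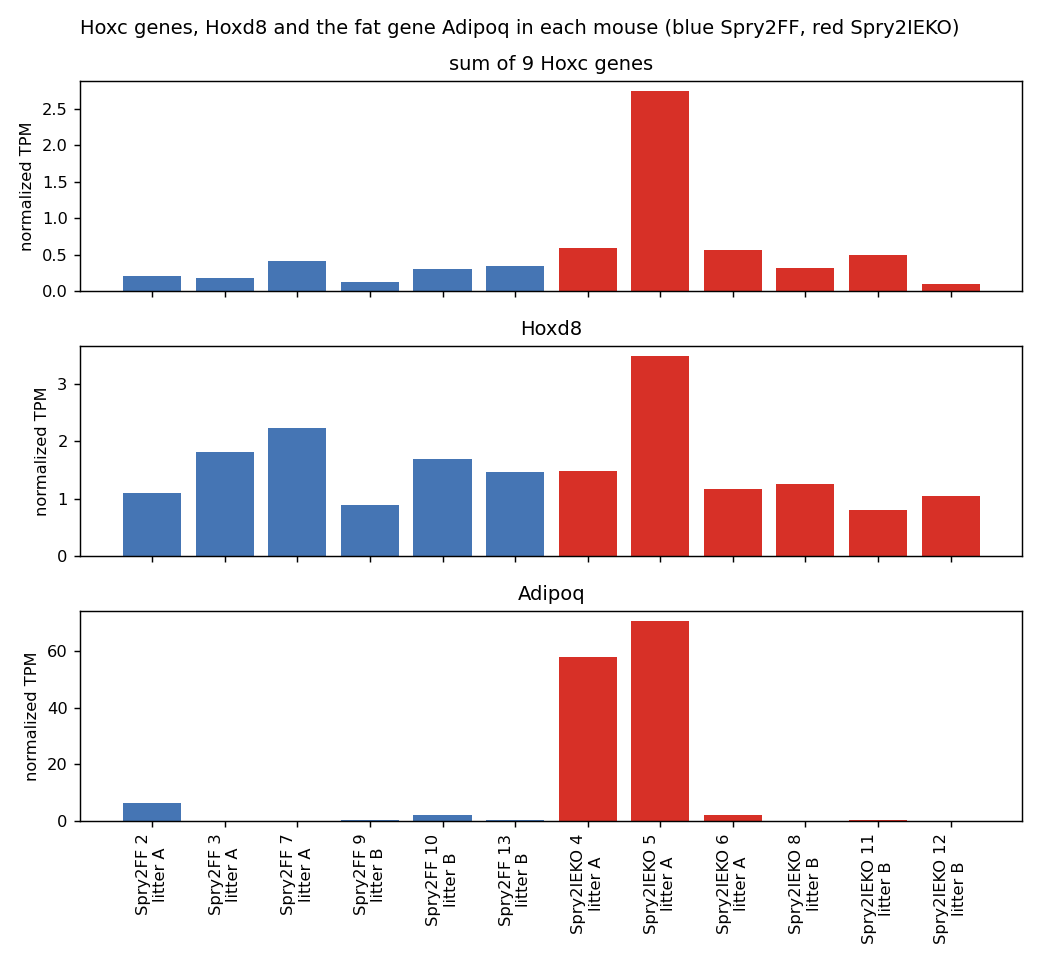
Summed normalized TPM of the 9 Hoxc genes (top), Hoxd8 (middle) and the adipocyte gene Adipoq (bottom) in each of the 12 mice, named with their litter; bars are single mice. Spry2IEKO replicate 5 is highest in all 3 panels, at 2.74, 3.49 and 70.8, and Spry2IEKO replicate 4 is second in Adipoq, at 57.8, and in the Hoxc sum, at 0.594.

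Annotated transcript types change the level of some members. Transcripts typed as protein-coding held 18.1% of the Hoxa10 level, 12.7% of Hoxd11, 49.6% of Hoxa9 and 73.7% of Hoxa7, with coding levels of 8.67, 2.63, 15.1 and 22.4. For Hoxb13, Hoxd13, Hoxa13, Hoxb9 and Hoxd10 the coding share was 100%. Hoxa2 and Hoxa3 share exon bases on the same strand with the annotated gene Gm28308, Hoxd10 and Hoxd11 with Gm28309, and Hoxd4 with Hoxd3 and Gm28230, so the split of reads between them is uncertain. Hoxa11, Hoxa7, Hoxb3 and Hoxb5 are among the members that overlap antisense genes, and how strand was used in pseudoalignment is not given in the sources used here.

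All 12 mice had nearly the same mix of paralog groups. Paralog groups 11 to 13 held between 66.2% and 69.9% of the Hox sum in each mouse, groups 9 and 10 between 19.0% and 22.5%, groups 5 to 8 between 7.68% and 9.33% and groups 1 to 4 between 2.30% and 3.12%. The level-weighted mean paralog number, a summary of how posterior the code is, was 11.29 ± 0.0568 (SD, n = 12), from 11.23 to 11.38. It was 11.27 ± 0.0525 in Spry2IEKO and 11.31 ± 0.0583 in Spry2FF mice, and by litter 11.29 ± 0.0505 for A and 11.29 ± 0.0674 for B (SD, n = 6 each). No test was made on this summary, and the differences between groups were smaller than the SD between mice.

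**Figure D3:**
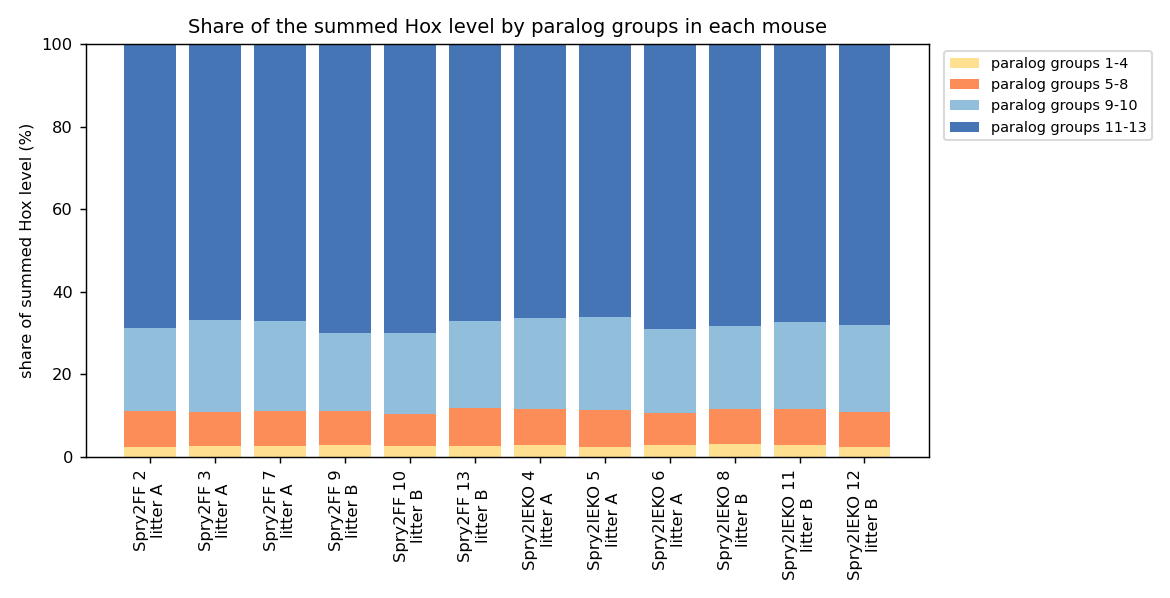
Share of the summed Hox level (y axis, percent) held by paralog groups 1 to 4, 5 to 8, 9 and 10, and 11 to 13 in each of the 12 mice, named with their litter; each bar is 1 mouse and adds to 100%. The share of groups 11 to 13 lies between 66.2% and 69.9% in every mouse, and no mouse stands apart.

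Within group 13 the balance of Hoxd13 and Hoxb13 differed between mice. Hoxb13 and Hoxd13 together held 50.5% to 54.8% of the Hox level. The ratio of Hoxd13 to Hoxb13, a measure not comparable in spread with that share, ran from 0.505 in Spry2IEKO replicate 6 to 1.04 in Spry2IEKO replicate 11. By litter the ratio was 0.665 ± 0.136 for A and 0.870 ± 0.161 for B, and by genotype it was 0.851 ± 0.221 in Spry2IEKO and 0.684 ± 0.0646 in Spry2FF mice (SD, n = 6 each). The 3 Spry2IEKO mice of litter B held the 3 highest ratios, from 0.987 to 1.04. Spry2IEKO replicate 8 was the highest mouse for 8 of the 25 genes tested, among them Hoxd13, Hoxa11 and Hoxd11, and the lowest for Hoxa2. It also had the highest Myh11, at 772. Spry2IEKO replicate 12 was the lowest for 5 of the 25, among them Hoxb6 and Hoxd12, and had the lowest Myh11, at 244. It was the highest for Hoxa2 and Hoxa5. Spry2FF replicate 2, next in Myh11 at 603, was the lowest for 4 of the 25 and the highest for 1. How often these mice were highest or lowest over all genes is not given. For Hoxd13, replicate 12 was at 178, within the range of litter B. Over the 12 mice Hoxd13 and Myh11 had r = -0.11 (permutation p = 0.724, adjusted p = 0.905) and rho = -0.16 (permutation p = 0.618, adjusted p = 0.919), with r = 0.16 without the 2 farthest mice. Within litters r was -0.79 in A and 0.35 in B (exact permutation p = 0.0528 and 0.50). Hoxa11, Hoxd11, Hoxb6 and Hoxd12 were not set against Myh11.

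Abundant Hox genes varied between mice about as much as other genes of that level. After removal of genotype and litter means, the median SD of log2(normalized TPM + 0.5) was 0.23 over the 25 Hox genes and 0.22 over all 15880 genes tested. Among genes with a mean of 10 or more it was 0.15 over 11 Hox genes and 0.16 over 8626 genes. Hoxa7 varied least, at an SD of 0.11, and Hoxb7 most, at 0.68.

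The genotype comparison asked whether deleting Spry2 in the epithelium went with another Hox code. Of the 25 Hox genes, 0 passed an adjusted p of 0.05, beside 5 of all 15880 genes tested (0.0315%), by limma with Benjamini-Hochberg adjustment over all genes. At an unadjusted p under 0.05 there was 1 Hox gene of 25 (4%), against 6.18% of all genes. Log2 fold changes on log2(normalized TPM + 0.5) were positive for 10 and negative for 15 Hox genes, with a median of -0.02 beside 0.01 over all genes. The interaction of genotype and litter passed for 0 of 25 Hox genes, beside 2 of 15880 genes (0.0126%), and no Hox gene had an unadjusted p under 0.05 for it.

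The group 13 genes overlapped between genotypes over both litters. Hoxb13 was at 171, 184 and 261 (lowest, median and highest, n = 6) in Spry2IEKO and at 191, 223 and 245 in Spry2FF mice. Its log2 fold change was -0.17 (SE 0.101, limma, adjusted p = 0.837). Within litter B the genotypes did not overlap for Hoxb13, with the 3 Spry2IEKO mice at 175 to 193 and the 3 Spry2FF mice at 224 to 245. The log2 fold change was -0.36 in litter B alone (limma, adjusted p = 0.962) and 0.01 in litter A alone (adjusted p = 0.992). Hoxd13 had a log2 fold change of 0.10 (SE 0.123, adjusted p = 0.921) and Hoxa13 one of -0.02 (SE 0.0819, adjusted p = 0.980), and the sign of both turned among females alone. The gene with an unadjusted p under 0.05 was Hoxb6, at 0.497, 0.927 and 3.12 in Spry2IEKO and 1.75, 2.40 and 3.50 in Spry2FF mice. In 4 of 6 Spry2IEKO mice Hoxb6 lay below every Spry2FF mouse, and replicates 8 and 11 lay within the Spry2FF range. Its log2 fold change of -0.75 (SE 0.328) did not pass (limma, adjusted p = 0.787). For Hoxb6 this was -1.02 in litter A alone, -0.47 in litter B alone and -0.48 without both mice high in fat genes (limma, adjusted p = 0.604, 0.997 and 0.923).

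The litter comparison asked whether mice of the 2 litters differed in their Hox code. With genotype in the model, 1 of 25 Hox genes passed, beside 696 of 15880 genes (4.38%), so the share of Hox genes called was close to that of all genes. Unadjusted p-values under 0.05 were found for 5 of 25 Hox genes (20%) and for 21.9% of all genes. Hox genes were higher in litter B for 20 of 25 (80%), against 41.2% of all genes, with a median log2 difference of 0.13 beside -0.05. The count of 20 was 16 when every mouse was scaled to the same total, 20 under quantile normalization and 13 among females alone. Each litter held 4 females and 2 males, and the sample descriptions begin with a different number for each litter, whose meaning the labels do not give, so it cannot be told apart from litter.

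The gene that passed was Hoxd13, which was higher in litter B. It was at 118, 134 and 160 (lowest, median and highest, n = 6) in litter A and at 158, 179 and 190 in litter B. Only Spry2FF replicate 7 of litter A, at 160, reached into the range of litter B. The log2 difference was 0.36 (SE 0.0741, limma, adjusted p = 0.0248). Within the Spry2IEKO mice the litters did not overlap, at 132 to 154 against 178 to 190 with 3 mice each, and within the Spry2FF mice they did, at 118 to 160 against 158 to 179.

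The call for Hoxd13 depended on the mice used. It was lost when Spry2FF replicate 2, 3, 9 or 13 or Spry2IEKO replicate 5 or 6 was left out, with log2 differences from 0.32 to 0.36 and adjusted p from 0.0515 to 0.0638 by limma. Without both mice high in fat genes it was 0.38 (adjusted p = 0.101), and among the 8 females it was 0.24 (adjusted p = 0.192). Adjusted p ranged from 0.0149 to 0.311 over all alternatives, and the difference was positive in each.

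Hoxa11, Hoxd10, Hoxa5 and Hoxd11 had unadjusted p-values under 0.05 between litters without passing. Hoxa11 was at 16.6, 22.5 and 25.7 in litter A and 24.4, 29.2 and 38.8 in litter B (lowest, median and highest, n = 6), a log2 difference of 0.42 (SE 0.125, limma, adjusted p = 0.0759). Hoxd10 was at 21.3, 25.6 and 30.3 in litter A and 28.3, 32.1 and 34.5 in litter B, a difference of 0.32 (SE 0.0946, adjusted p = 0.0782). Both genes overlapped between litters, with most litter B mice above most litter A mice. Hoxa5 differed by 0.24 (SE 0.0959, adjusted p = 0.171) and Hoxd11 by 0.20 (SE 0.0896, adjusted p = 0.222). Hoxd11 turned to -0.06 when coding transcripts alone were summed. The other members of group 13 did not pass, with differences of -0.03 (SE 0.103, limma, adjusted p = 0.892) for Hoxb13 and 0.02 (SE 0.0829, adjusted p = 0.932) for Hoxa13, and the sign of both depended on which mice were used and, for Hoxa13, on the scaling. For Hoxb13 the litters lay in opposite order in the 2 genotypes. In Spry2FF mice it was at 191 to 222 in litter A and 224 to 245 in litter B, a log2 difference of 0.16 (limma, adjusted p = 0.427). In Spry2IEKO mice it was at 171 to 261 and 175 to 193, a difference of -0.22 (adjusted p = 0.602). The interaction of genotype and litter for Hoxb13, -0.38 on the log2 scale (SE 0.184, unadjusted p = 0.0647 by limma), did not pass (adjusted p = 0.998).

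**Figure D4:**
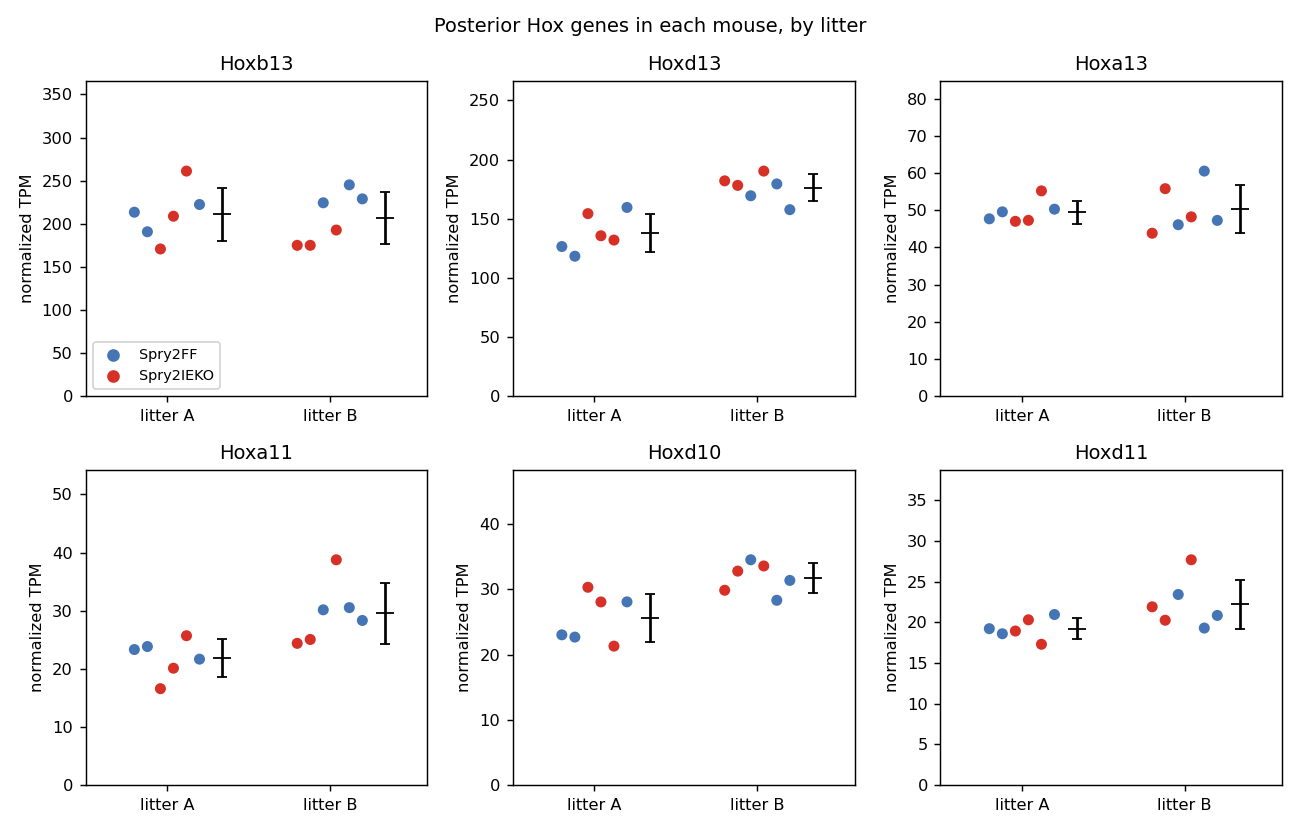
Normalized TPM (y axis, from 0) of 6 posterior Hox genes in each mouse of litter A and litter B; points are mice (blue Spry2FF, red Spry2IEKO), and the bar beside each litter gives its mean and SD (n = 6). Hoxd13 runs from 118 to 160 in litter A and from 158 to 190 in litter B, while Hoxb13 and Hoxa13 overlap across litters.

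**Figure D5:**
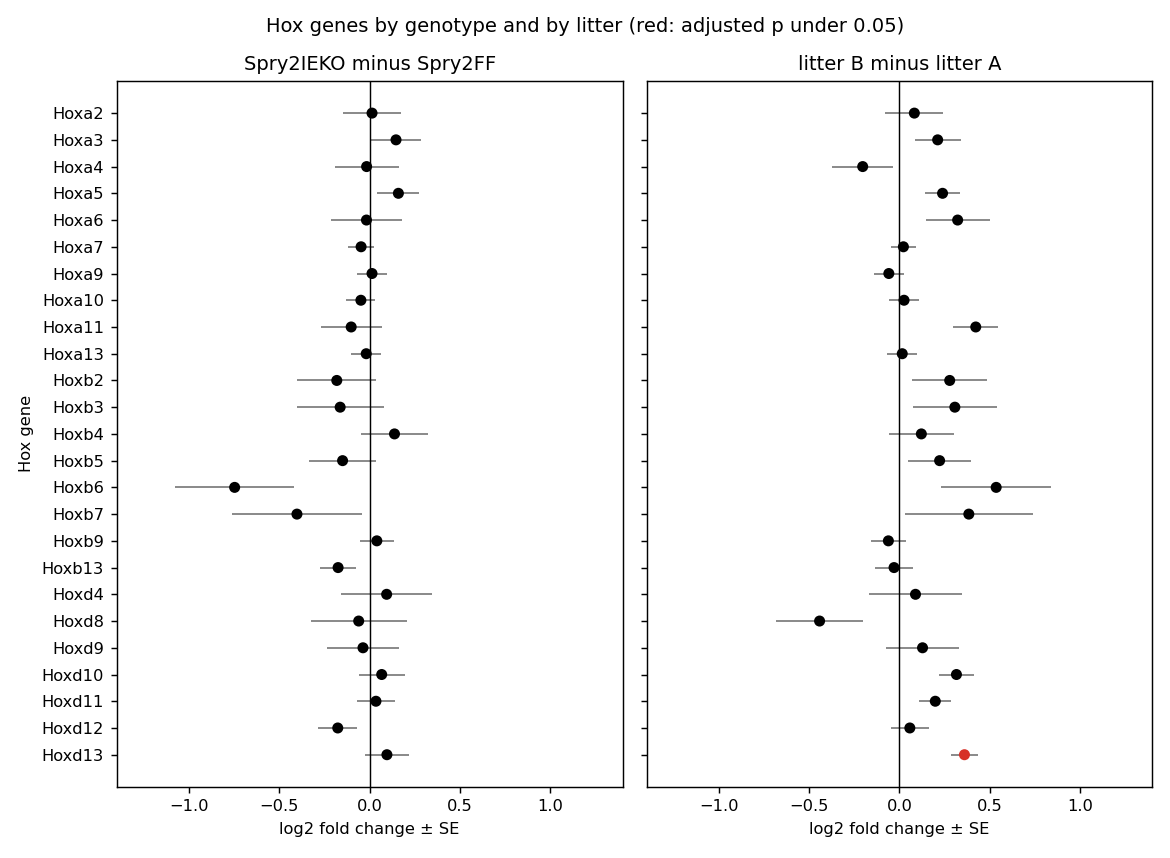
Log2 fold change with its SE (x axis) of the 25 Hox genes tested, for Spry2IEKO minus Spry2FF (left) and litter B minus litter A (right), from limma on log2(normalized TPM + 0.5); red marks an adjusted p under 0.05. The only red point is Hoxd13 by litter, at 0.36, and Hoxb6 by genotype, at -0.75, has a wide SE of 0.328.

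Markers of other cell types also moved with litter. Of 5 fibroblast genes, 3 fell in litter B: Pdgfra by 0.73, Col1a1 by 0.89 and Col3a1 by 0.93 on the log2 scale (limma, adjusted p = 0.0167, 0.0225 and 0.00944). The list summed to 407 to 671 in litter A and 231 to 394 in litter B, with no overlap. Of 6 smooth muscle genes 0 passed, with sums of 3820 to 6923 and 3226 to 7887. Of 6 colon epithelium genes 1 passed, Cdh1, the adhesion protein E-cadherin, which fell by 0.22 (adjusted p = 0.0282), while 4 of the 6 had positive differences and the median of the list was 0.12. Without both mice high in fat genes these 4 calls were lost, at -0.65 for Pdgfra, -0.75 for Col1a1, -0.85 for Col3a1 and -0.24 for Cdh1 (limma, adjusted p = 0.108, 0.130, 0.0783 and 0.109), and the count over all genes was 17 in place of 696. By genotype 0 of the 6 epithelium genes passed and all 6 were negative, with a median log2 fold change of -0.23. At an unadjusted p under 0.05 by limma there were 5 of these 6 by genotype and 3 by litter, against 6.18% and 21.9% of all genes. This list too was chosen with earlier results of these data known. Fat genes summed to 20.8 to 761 in litter A and 20.1 to 37.9 in litter B. The part of these shifts in the Hoxd13 difference was not tested.

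Markers of position along the colon were set beside the group 13 genes. Car1, a carbonic anhydrase richest in the proximal colon, ranged from 912 to 3012, and Insl5, a hormone of distal colonic endocrine cells, from 62.9 to 288. Of 4 proximal and 6 distal colon genes, 0 passed in either the genotype or the litter comparison. At an unadjusted p under 0.05 by limma there were 6 of these 10 by genotype, against 6.18% of all genes, and 1 of 10 by litter, against 21.9%. The lists were chosen with earlier results of these data known, so these shares describe the lists and do not test them. Of the 6, 3 were higher and 3 lower in Spry2IEKO mice, in both lists. The proximal genes among them were Car1 at a log2 fold change of -0.64 (adjusted p = 0.692), Aqp4 at 0.64 (adjusted p = 0.753) and Ang4 at 1.20 (adjusted p = 0.798). The distal genes were Fxyd4 at -0.76 (adjusted p = 0.611), Eno3 at -0.34 (adjusted p = 0.776) and Retnlb at 2.40 (adjusted p = 0.478), genes outside the naming rule being named here after their values were seen. The part of these shifts in the Hox values was not tested. Of 15 relations computed on the log2 scale, 12 of Hoxa13, Hoxb13 and Hoxd13 with Insl5, Car1, Epcam and Myh11 and 3 among the group 13 genes, none passed adjustment over the 12 mice. The lowest adjusted p was that of Hoxb13 with Epcam, the epithelial adhesion molecule, with rho = 0.64 (permutation p = 0.0274, adjusted p = 0.412) and r = 0.43 (permutation p = 0.162, adjusted p = 0.768, n = 12 mice), r being 0.33 without the 2 mice farthest from the median. Its r was 0.66 in litter A (exact permutation p = 0.169) and 0.61 in litter B (exact permutation p = 0.221). The lowest p within a litter was that of Hoxa13 with Epcam in litter A, with r = 0.83 (exact permutation p = 0.0181, not adjusted), while r was 0.26 in litter B (exact permutation p = 0.635).

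Relations among the group 13 genes themselves did not pass either. Hoxb13 and Hoxd13 had r = -0.21 (permutation p = 0.501, adjusted p = 0.893) and rho = -0.12 (permutation p = 0.716, adjusted p = 0.919) over 12 mice, and r = -0.08 without the 2 farthest mice. Within litters r was -0.13 and -0.51 (exact permutation p = 0.810 and 0.332). Hoxa13 and Hoxb13 had r = 0.43 (permutation p = 0.168, adjusted p = 0.768) and rho = 0.36 (permutation p = 0.245, adjusted p = 0.876), with r = 0.65 without the 2 farthest mice and 0.80 and 0.29 within litters. Hoxa13 and Hoxd13 had r = 0.06 (permutation p = 0.841, adjusted p = 0.970) and rho = -0.03 (permutation p = 0.919, adjusted p = 0.919), with r = -0.49 without the 2 farthest mice and -0.13 and 0.17 within litters. The number of mice limits the size of relation that could be detected.

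Markers of neighboring tissues that a distal piece could carry differed in level. In the anal squamous list of 9 genes, Krt6a and Sprr1b were listed at 0 in all mice and Krt5 reached at most 0.209. The list summed to 4.43 to 10.6, and Krt10 had its highest mean, 5.82. Krt14 ran from 0.716 to 3.61 and was above Krt10 in Spry2FF replicate 2, at 2.72 against 2.03. By genotype Krt14 had a log2 fold change of -0.76 (limma, unadjusted p = 0.006, adjusted p = 0.656) and Krt10 one of 0.09 (adjusted p = 0.973). Prostate genes, a possible source of Hoxb13 in males, summed to at most 1.12, with Msmb at 0 in all mice. Skeletal muscle genes summed to 17.9 to 62.3 with Myh4 at 0 in all mice, and 0 of the 4 tested passed by genotype or litter. Hoxb13 ranged from 171 to 261 in the 8 females and from 191 to 245 in the 4 males.

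No cofactor or regulator of Hox genes passed in either comparison. Of 11 cofactor genes, which encode the homeodomain partners that bind DNA with Hox proteins, all 11 were tested and 0 passed. Tgif1 had the highest level, 45.2 ± 7.56 (SD, n = 12), followed by Pbx2 at 25.0 and Pbx3 at 14.1. The median log2 difference by litter was -0.11. Of 18 regulators, 16 were tested and 0 passed. Cdx1, a caudal factor that acts upstream of Hox genes in the gut, was at 181 ± 15.4, and the Polycomb genes Eed, Ezh2 and Suz12, whose products silence Hox clusters, were at 53.1, 29.8 and 23.0. Cdx4, an embryonic caudal factor, was listed at 0 in all 12 mice.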

How the data were processed

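Full-thickness distal colon of 12 mice was analysed by RNA sequencing, with genotype, litter and sex as in the labels, which call the reads paired-end where the study's methods call them single-ended. The authors pseudoaligned reads with kallisto and obtained TPM, and the deposited signal is TPM per transcript scaled between mice. How the scaling was done is not given in the sources used here, and the submitters' processing notes also name CASAVA, sleuth and mm10. The table also holds columns of the authors' own transcript tests, which were not used.

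Of 113974 entries, 781 repeats were dropped, leaving 113193 transcripts, and 27 gene names that had become dates were restored through GENCODE M21. Values were summed per gene symbol. Genes whose mean reached 0.5 entered limma 3.58.1 (R 4.3.3; lmFit, eBayes with trend) on log2(value + 0.5), two-sided, with Benjamini-Hochberg adjustment over 15880 genes, without covariate for genotype and with genotype as covariate for litter. Fold changes on this scale understate those of low genes. Relations used 100000 permutations over 12 mice and exact permutation within litters. Sums and permutations were computed with SciPy 1.17.1, NumPy 2.4.6 and pandas 2.3.3 in Python 3.11.15, and plots were drawn with matplotlib 3.10.9.

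The Hox genes and the gene lists were chosen with earlier results of these data known. Every Hox gene with a mean of at least 0.5 was named, and of other lists the genes that passed and up to 4 with the highest means. Of 18 relations listed, 15 were computed. Prac1, 11 of 13 listed genes next to or within the Hox clusters, and antisense RNAs were not analysed here, and some listed genes are not reported here. Alternatives were other pseudocounts (0.1 and 1), filters, scalings, sex and litter as covariates, single litters, genotypes or females, coding transcripts alone, and each mouse left out. Leaving out both mice high in fat genes was added after the data were seen.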

Additional observations from a re-analysis of the deposited data

Results flagged for a closer look

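In each genotype, the highest or lowest of the 6 mice was compared with the others for each of the 25 Hox genes tested, and 7 of 50 groups had a mouse far from the rest. The nominal rate of such flags is about 1 in 20. The share over all genes is not given and the genes share the same mice, so no excess particular to Hox genes can be read from this count. Among Spry2IEKO mice, Hoxa2 was at 4.83 in replicate 12 against 2.32 to 2.85 in the other mice. Hoxa4 was at 1.65 in replicate 4 against 0.866 to 1.10. In replicate 5, Hoxa7 was at 32.1 against 28.9 to 30.0 and Hoxd8 at 3.49 against 0.800 to 1.49. Among Spry2FF mice, replicate 9 was high in Hoxa13, at 60.6 against 46.1 to 50.3, and in Hoxd4, at 1.29 against 0.353 to 0.692. Hoxb5 was low in Spry2FF replicate 3, at 1.30 against 2.45 to 3.07.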

How the results depend on the processing

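The count of 0 Hox genes by genotype was the same under all 25 alternatives run, and the count of 1 by litter was 2 under quantile normalization, where Hoxd10 also passed, and 0 among females alone, without the mice high in fat genes and in each genotype alone, ranging from 0 to 1 with 1 mouse left out. Over all genes, 5 passed by genotype, but 1 with no filter, with sex as covariate, without the mice high in fat genes and in litter B alone, and 2 under quantile normalization, among females, with coding transcripts and in litter A alone, ranging from 1 to 11 with 1 mouse left out. By litter 696 genes passed, 171 higher and 525 lower. The count was 422 with no filter, 1456 (105 higher, 1351 lower) with the same total in every mouse, 1100 with coding transcripts, 17 without the mice high in fat genes and 1 among females and in each genotype alone, ranging from 180 to 957 with 1 mouse left out. Quantile normalization gave 209 higher and 268 lower. The median over all genes went from -0.05 to -0.12 with the same total. Fewer mice entered these smaller fits, and other causes were not tested.

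Signs turned only for values that had not passed. By genotype these were Hoxb13 in litter A alone (0.0136), Hoxd13 among females (-0.0643), and Hoxa13 among females (0.0511), with sex as covariate (0.00333), without the mice high in fat genes (0.0136) and in litter A alone (0.0152), with a range of -0.0541 to 0.0353 with 1 mouse left out. By litter these were Hoxb13 in Spry2FF mice alone (0.158), ranging from -0.0794 to 0.0600 with 1 mouse left out, Hoxd11 with coding transcripts (-0.0615), and Hoxa13 with the same total (-0.0642), among females (-0.0424), without the mice high in fat genes (-0.0233) and in Spry2IEKO mice alone (-0.0190), ranging from -0.0435 to 0.0548. With genotype and litter means removed, r turned to -0.000325 for Hoxa13 with Myh11, -0.12 for Hoxb13 with Car1, -0.42 for Hoxd13 with Car1 and -0.0903 for Hoxd13 with Epcam. Without the 2 farthest mice it turned to -0.49 for Hoxa13 with Hoxd13, 0.13 for Hoxa13 with Insl5, -0.32 for Hoxa13 with Car1 and 0.16 for Hoxd13 with Myh11.

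With coding transcripts alone the means moved to 22.4 for Hoxa7, 15.1 for Hoxa9, 8.67 for Hoxa10 and 2.63 for Hoxd11, and the mean paralog number to 11.53. Weighting by log2(value + 1) gave a mean paralog number of 8.95. The number of Hox genes expressed was 32 at a mean of 0.1, 23 at 1 and 22 with 0.5 in every mouse. No paired analysis was possible because the replicate numbers are not shared between the groups, and litter was used instead. Values carry no read depth, so limits for genes listed at 0 could not be set.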

Other observations

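Among transcription factors that mark gut regions, 4 of 8 were tested. Hnf4a, a factor of intestinal enterocytes, was at 278 and Gata6 at 21.3 as means over 12 mice. Nkx2-3, a factor of gut mesenchyme, fell by 0.60 on the log2 scale in litter B (SE 0.154, limma, adjusted p = 0.0478), from a mean of 3.77 in litter A to 2.35 in litter B (n = 6 each). Without both mice high in fat genes the difference for Nkx2-3 was -0.64 (SE 0.190, limma, adjusted p = 0.158). Evx2, which lies beside Hoxd13, was at 3.44, from 2.12 to 5.10, and did not pass by genotype or litter, with a log2 difference between litters of 0.04 (SE 0.178, adjusted p = 0.907). B cell genes summed to 2.63 to 216 in Spry2IEKO and 1.24 to 89.1 in Spry2FF mice, and 0 of 4 passed in either comparison.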
